A study of Mus musculus with 24 samples.

Results

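Dual-specificity phosphatases remove phosphate from both the threonine and the tyrosine that activate a MAP kinase. The 10 genes described here were taken by symbol, with no threshold on a measured value: Dusp1, Dusp2, Dusp3, Dusp4, Dusp5, Dusp6, Dusp7, Dusp10, Dusp16 and Dusp22. They are 10 of the 54429 gene symbols in the deposited tables, and all 10 were among the 12797 genes that passed the filter on low counts and were tested. Expression was measured by RNA-seq in macrophages grown from mouse bone marrow, with 6 libraries in each of 4 groups and 24 libraries in all. MK2 (gene symbol Mapkapk2) is a kinase that p38 activates, and the comparison asks how its loss and treatment with interleukin-4 (IL-4) relate to transcripts of the phosphatases that act on p38, JNK and ERK.

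The KO M2 group came from MK2 knockout mice, and its cells were given murine IL-4 at 10 ng/ml and harvested 24 h later. The KO M0 group had the same genotype and no IL-4. The WT M2 group came from MK2 wild-type mice and had the same IL-4 treatment, and the WT M0 group was wild type without IL-4. All mice were of the strain C57BL/6N. All 4 groups were grown with murine M-CSF at 10 ng/ml and replated on day 7, in medium with serum. The part of the gene removed in the knockout, the age of the mice and any pooling of animals are not given in the sources used here. The labels number the replicates but do not say whether they came from separate animals or cultures. Each p-value therefore sets a difference between groups against the spread of these libraries only, and that spread may be technical.

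MAP kinase phosphatases act as feedback inhibitors: many of their genes are switched on by the MAP kinases that the proteins then turn off. The family differs in place and preference. Dusp1, Dusp2, Dusp4 and Dusp5 are inducible nuclear enzymes, Dusp6 and Dusp7 are cytoplasmic enzymes that prefer ERK, Dusp10 and Dusp16 prefer JNK and p38, and Dusp3 and Dusp22 are small enzymes that lack the MAP kinase docking domain. In macrophages Dusp1 is best known for limiting p38 and JNK signalling after inflammatory stimuli.

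A promoter element and an element of the untranslated region are shown for the members in which they were found. The promoter of Dusp1 is printed because it was the sole promoter of the 9 members with an entry in the table to hold the cyclic AMP response element TGACGTCA, searched on both strands. Dusp4 has no entry in the table. The window spans a start site that RefSeq places on the minus strand, at chr17:26508423-26508722 of the mouse build GRCm38.p6. The element, in capitals, begins at position -143 from that site.
Dusp1 promoter: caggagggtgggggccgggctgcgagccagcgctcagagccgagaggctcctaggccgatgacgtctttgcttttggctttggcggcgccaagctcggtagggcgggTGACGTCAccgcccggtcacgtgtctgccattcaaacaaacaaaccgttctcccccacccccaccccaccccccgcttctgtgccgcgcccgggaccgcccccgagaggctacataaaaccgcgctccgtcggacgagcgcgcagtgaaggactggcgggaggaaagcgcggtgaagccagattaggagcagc
That element was present in 1.79% of all 32851 mouse promoters of the same length. The AP-1 pattern TGANTCA, found in 7.81% of all promoters, and the STAT6 pattern, TTC and GAA with any 4 bases between them, found in 6.95%, were in 0 of the 9 windows. STAT6 is the factor that IL-4 activates. The NF-kB pattern, GGG and CC with any 5 bases between them, was in 8 of the 9 windows and in 50.8% of all promoters, and the loose serum response core, CC and GG with any 6 bases between them, was in 73.3% of all. The stricter CArG box, a pattern added after the others were counted, was found in Dusp5 alone, in 2 places, against 1.63% of all promoters. These are matches of letters in a short window and say nothing of whether a factor binds there or elsewhere.

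The other feature was the AU-rich element of the 3′ untranslated region (UTR), which is the kind of site bound by proteins that MK2 acts on. In the longest annotated 3′ UTR of each gene (GENCODE M21), the 7-base core TATTTAT was found in Dusp1 in 3 places and in Dusp2 in 1 place, and in 0 places in the remaining 8 members. Across 20769 mouse genes, 27.8% held the core at least once and 4.16% at least 3 times. The windows are given as DNA of the transcribed strand with the core in capitals, the first 3 on the minus strand of chromosome 17 and the last on the plus strand of chromosome 2.
Dusp1, chr17:26506162-26506184: ctggtcctTATTTATttaacacc
Dusp1, chr17:26505873-26505895: tttaccttTATTTATttttgtgt
Dusp1, chr17:26505677-26505699: tgtttgttTATTTATgatctgaa
Dusp2, chr2:127338307-127338329: gcactttaTATTTATatagaaca
The Dusp1 UTR was 690 bases long and held the shorter pattern ATTTA 4 times, as did the Dusp2 UTR of 581 bases. ATTTA was found in 65.6% of all genes, and among the members Dusp7 alone had 0 matches. Dusp4, whose values changed most, had 2 copies of ATTTA in 1111 bases and no copy of the longer core.

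Total counts ranged from 7893809 to 13492507 per library. Mapkapk2 itself averaged 54.0 ± 4.38 CPM in KO M2, 58.8 ± 2.88 in KO M0, 119.8 ± 9.93 in WT M2 and 118.7 ± 13.9 in WT M0 (SD, n = 6 each). CPM are counts scaled to a common library size. Transcripts of the targeted gene were thus lower and not absent in KO libraries, with a log2 fold change of -1.15 with IL-4 and -1.01 without IL-4 (edgeR's quasi-likelihood test, adjusted p = 2.26e-11 and 1.33e-10). All 8 macrophage markers were present in every group. Of 10 genes listed for alternative activation, 7 were tested, and 6 were higher after IL-4 in each genotype. The summed level of 12 stromal and fibroblast markers was 6.81 to 19.0 CPM in KO M2 and 7.88 to 24.7 in KO M0, against 99.6 to 137 in WT M2 and 110 to 172 in WT M0. Lum was at 0 in KO M0. Summed markers of neutrophils lay between 103 and 326 CPM, of megakaryocytes between 79.5 and 190.2, of T and NK cells between 11.4 and 44.2, and of mast cells with basophils and eosinophils between 5.51 and 13.3. Most of the megakaryocyte sum was Pf4, with group means from 99.7 CPM in KO M2 to 137 in WT M0. Nearly all of the T and NK cell sum was Cd4, from 16.2 CPM in KO M2 to 30.5 in WT M0. The other genes of that list averaged at most 0.789 CPM in any group. B cell, dendritic cell and erythroid markers summed to at most 5.29, 2.86 and 1.44 CPM in any library. In bulk RNA of this kind, fewer cells of a type and less RNA per cell cannot be told apart.

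Levels were compared between genes on the GETMM scale alone, the authors' deposited signal, which is scaled for gene length and library. Dusp3, which encodes the small phosphatase VHR, was the most abundant member at a mean of 164 GETMM over the 4 groups, and its libraries spanned 140.2 to 180.2. Dusp7 followed at 38.5, Dusp1 at 37.8 and Dusp4 at 28.4. Dusp6 averaged 18.4, Dusp22 13.2, Dusp16 7.33, Dusp2 5.57, Dusp5 2.60 and Dusp10 1.25. Dusp3 stood above the next member in every library of every group. Below it the order was not the same in all groups: Dusp4 was the second member in KO M2, at a mean of 54.8 GETMM, but averaged 16.8 in KO M0, 31.2 in WT M2 and 10.6 in WT M0. In KO M2 the lowest Dusp4 library, at 42.0 GETMM, was below the highest Dusp7 library, at 42.8. Dusp4 and Dusp7 also overlapped in WT M2. Dusp1 and Dusp7 overlapped in KO M2, KO M0 and WT M0, so their order there was within the spread of the libraries. Dusp2 and Dusp5 overlapped in both M0 groups, and Dusp2 and Dusp16 in both M2 groups.

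**Figure D1:**
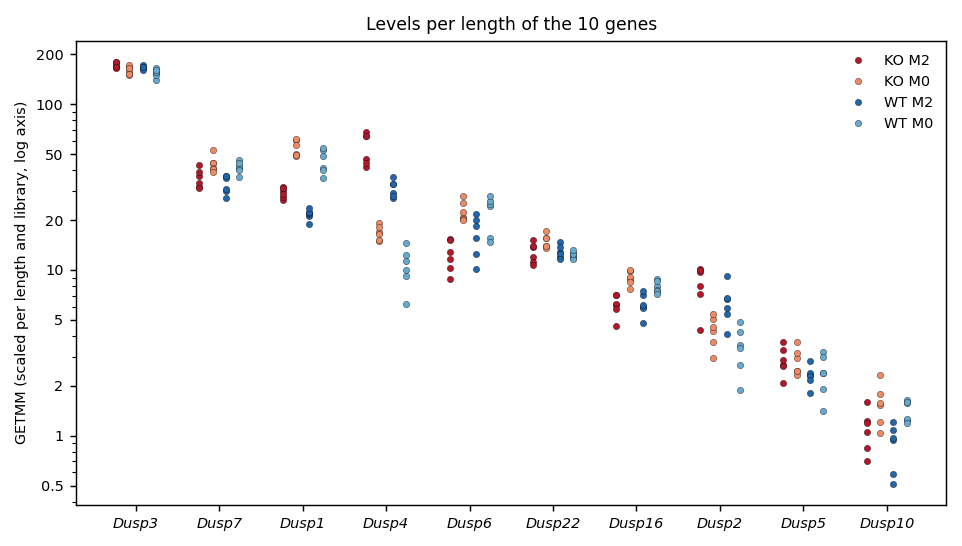
Length-scaled levels (GETMM, log axis) of the 10 phosphatase genes in the 24 libraries, ordered by their mean over the groups; each point is 1 library. Dusp3 sits above all the others at about 164, Dusp10 lies lowest at 1.25, and Dusp4 and Dusp1 are spread more widely between groups than Dusp3.

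IL-4 left some of these genes higher and others lower, with opposite results for Dusp4 and Dusp1. In knockout cells 6 of the 10 members changed at an adjusted p below 0.05, of which Dusp2 and Dusp4 rose and Dusp1, Dusp6, Dusp7 and Dusp16 fell. Among all genes tested in knockout cells, 23.6% changed, 12.2% higher and 11.4% lower. In wild-type cells 6 of 10 members also changed: Dusp2 and Dusp4 rose, and Dusp1, Dusp7, Dusp10 and Dusp16 fell, where 16.4% of all genes changed, 8.49% higher and 7.95% lower. The median log2 fold change of the 10 members was -0.23 in knockout and -0.20 in wild type, beside -0.0038 and -0.02 over all genes. By edgeR's quasi-likelihood test 5 members passed in both genotypes and in the same direction. The share of all genes that did so is not given here, so this count cannot be read as particular to the members. All values below for these comparisons are CPM, and adjusted p-values are from that test.

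Dusp4, a nuclear phosphatase for ERK and JNK, gave the largest response of the 10 members to IL-4 in both genotypes. Its gene lies at chr8:34807297-34819894 of mm10, on the plus strand. It ranged from 65.6 through a median of 85.7 to 105 CPM in KO M2, against 23.0, 25.4 and 29.6 CPM in KO M0. In wild type the lowest, median and highest values were 42.3, 48.4 and 56.9 CPM in WT M2, against 9.79, 16.7 and 22.0 in WT M0. Every IL-4-treated library was above every untreated one within each genotype. The log2 fold change was 1.72 (SE 0.14, adjusted p = 1.15e-09) in knockout and 1.55 (SE 0.15, adjusted p = 2.83e-08) in wild type. Replicates 1 to 3 of KO M2 had 99.4, 105 and 98.6 CPM, and replicates 4 to 6 had 72.8, 65.6 and 70.0. The high values thus fell in replicates 1 to 3. The summed endothelial markers were at 176 to 262 CPM in KO M2, 90.3 to 105.8 in KO M0, 128 to 184 in WT M2 and 54.4 to 74.5 in WT M0. Nearly all of that sum was Vwf, with a mean of 202 CPM in KO M2, 91.7 in KO M0, 135 in WT M2 and 55.1 in WT M0. All 6 genes of the list had counts in each group. Of the others, Pecam1 averaged 3.88 CPM in KO M2, 2.41 in KO M0, 4.54 in WT M2 and 2.90 in WT M0. Kdr went the other way, at 2.62 CPM in KO M2, 5.21 in KO M0, 3.17 in WT M2 and 4.34 in WT M0. Cdh5 and Emcn also had lower means with IL-4 in both genotypes. Over the 4 group means Cdh5 lay between 0.222 and 1.33 CPM and Emcn between 0.119 and 0.656. Tek, between 0.0371 and 0.0885 CPM, had higher means with IL-4. The part of this list in the result was not tested. The summed osteoclast markers also differed with IL-4, at 1857 to 2696 CPM in KO M2, 969 to 1499 in KO M0, 2035 to 2686 in WT M2 and 1288 to 1997 in WT M0. Nearly all of that sum was Atp6v0d2, with a mean of 2174 CPM in KO M2, 1166 in KO M0, 2212 in WT M2 and 1493 in WT M0. Acp5, Ctsk, Ocstamp and Dcstamp also had higher means with IL-4 in both genotypes, Acp5 at 23.1 CPM in KO M2 against 9.12 in KO M0 and at 30.2 in WT M2 against 13.7 in WT M0, while Mmp9 had lower means. Calcr was at 0 in every group but WT M2, and the part of this list in the results was not tested.

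Dusp1, the inducible nuclear phosphatase of p38 and JNK, went the other way. Its lowest, median and highest values were 29.3, 32.3 and 35.2 CPM in KO M2, against 53.0, 59.3 and 67.2 in KO M0. In wild type they were 21.0, 24.2 and 26.0 CPM in WT M2, against 40.6, 50.5 and 59.5 in WT M0. Within each genotype the highest IL-4-treated library was below the lowest untreated one. The log2 fold change was -0.89 (SE 0.09, adjusted p = 3.56e-08) in knockout and -1.09 (SE 0.09, adjusted p = 3.66e-09) in wild type. Dusp1, whose promoter and AU-rich windows are printed above, had the lowest fold change of the 10 members in wild type. In knockout its value and that of Dusp6 were within their errors. Its annotated gene lies at chr17:26505590-26562128 of mm10, on the minus strand, per GENCODE M21. The printed promoter window, from RefSeq, lies within this span and not at its upstream end.

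Dusp2, a nuclear phosphatase found mainly in immune cells, was low but rose with IL-4. It had 3.37, 7.05 and 8.03 CPM as lowest, median and highest in KO M2, against 2.30, 3.41 and 4.33 in KO M0. WT M2 libraries had 3.24, 4.98 and 7.20 CPM, against 1.51, 2.77 and 3.75 in WT M0. The groups overlapped in both genotypes, in each case through 1 low IL-4-treated library, KO M2 replicate 3 and WT M2 replicate 1. The log2 fold change was 0.95 (SE 0.22, adjusted p = 0.00214) in knockout and 0.88 (SE 0.23, adjusted p = 0.00812) in wild type. In replicates 1 to 3 alone neither response passed (adjusted p = 0.158 in knockout and 0.294 in wild type). Dusp5, the ERK-specific nuclear member, averaged 4.03 ± 0.808 CPM in KO M2, 3.94 ± 0.693 in KO M0, 3.23 ± 0.465 in WT M2 and 3.34 ± 0.897 in WT M0. Its IL-4 response was 0.03 in knockout (adjusted p = 0.940) and -0.06 in wild type (adjusted p = 0.868), smaller than its spread. Dusp5 shares 547 exonic bases with an antisense gene, and whether the libraries kept strand is not given, so its counts are uncertain.

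**Figure D2:**
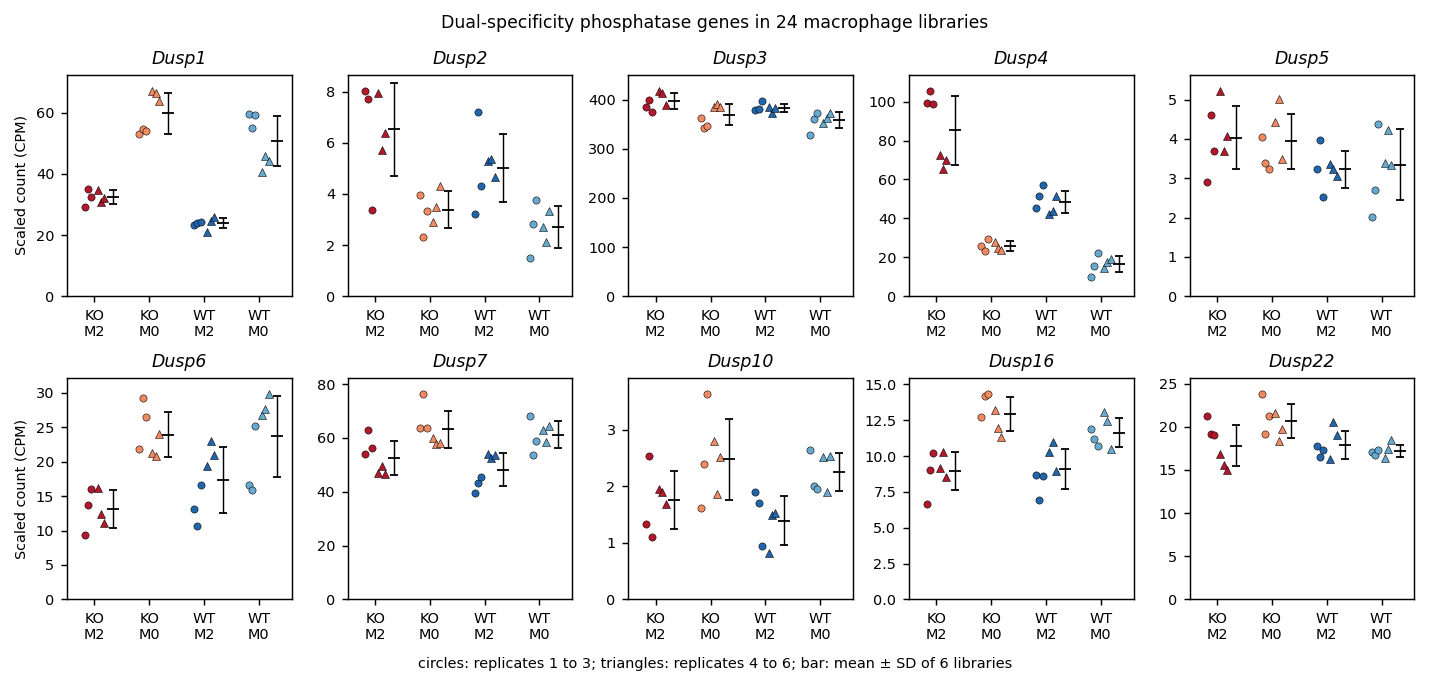
CPM of each phosphatase gene in every library, in the order KO M2, KO M0, WT M2, WT M0; circles are replicates 1 to 3, triangles replicates 4 to 6, and bars are the mean ± SD of the 6 libraries. Dusp4 in KO M2 (65.6 to 105 CPM) lies above every other group, and Dusp1 in WT M2 (21.0 to 26.0 CPM) lies below every other group.

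Of the cytoplasmic ERK phosphatases, Dusp6 had 9.37, 13.0 and 16.2 CPM as lowest, median and highest in KO M2, against 20.8, 22.9 and 29.2 in KO M0. In wild type it had 10.7, 18.0 and 23.0 CPM in WT M2, against 15.9, 26.0 and 29.8 in WT M0. The knockout groups were apart and the wild-type groups overlapped. Dusp6 fell in knockout, with a log2 fold change of -0.86 (SE 0.18, adjusted p = 7.98e-04), and its value in wild type was -0.46 (SE 0.18, adjusted p = 0.0801). The wild-type value passed when WT M0 replicate 1, WT M0 replicate 2 or WT M2 replicate 5 was left out (adjusted p = 0.0405, 0.0317 and 0.0390), and in replicates 4 to 6 alone (adjusted p = 0.0190). It also passed with a block for the label number that an M0 and an M2 library share (adjusted p = 0.00181). The difference between these responses was -0.40 (95% interval -0.93 to 0.12) and did not pass the test. Dusp7, the other cytoplasmic ERK phosphatase, had 46.5, 51.8 and 62.8 CPM in KO M2 against 57.9, 61.8 and 76.3 in KO M0, and 39.7, 49.1 and 54.0 CPM in WT M2 against 53.8, 61.1 and 68.3 in WT M0. In wild type the groups overlapped by 1 library on each side, and in knockout by more. Dusp7 fell by 0.26 on the log2 scale in knockout (SE 0.09, adjusted p = 0.0328) and by 0.35 in wild type (SE 0.09, adjusted p = 0.00746). The knockout call was lost without any 1 of KO M0 replicates 1 to 3 or KO M2 replicates 4 to 6, with an adjusted p up to 0.115, in replicates 1 to 3 alone (adjusted p = 0.201) and with no count filter (adjusted p = 0.0946).

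The JNK and p38 phosphatases were low. Dusp16 had 6.69, 9.09 and 10.3 CPM in KO M2, against 11.3, 13.0 and 14.3 in KO M0, and these groups were apart. In wild type it had 6.96, 8.82 and 10.96 CPM in WT M2, against 10.5, 11.6 and 13.1 in WT M0, with overlap. It fell in both genotypes, with a log2 fold change of -0.53 (SE 0.11, adjusted p = 5.91e-04) in knockout and -0.36 (SE 0.11, adjusted p = 0.0201) in wild type. The wild-type call was lost without WT M0 replicate 4 (adjusted p = 0.0575) or WT M2 replicate 2 (adjusted p = 0.0553). It was also lost in replicates 1 to 3 alone (adjusted p = 0.125), in replicates 4 to 6 alone (adjusted p = 0.216) and with no count filter (adjusted p = 0.0935). Dusp10 was the least abundant member, with 99 counts summed over KO M2, 148 over KO M0, 83 over WT M2 and 129 over WT M0. It averaged 1.75 ± 0.509 CPM in KO M2 against 2.48 ± 0.713 in KO M0, and 1.39 ± 0.428 in WT M2 against 2.26 ± 0.339 in WT M0. Its fall in wild type was just past the threshold at -0.69 (SE 0.24, adjusted p = 0.0463), and in knockout the value was -0.50 (SE 0.23, adjusted p = 0.127). The wild-type call was lost when any 1 of 14 libraries was left out, with an adjusted p up to 0.112, and by DESeq2 (adjusted p = 0.0536). It was also lost with no count filter (adjusted p = 0.175) and with only the 2 groups compared (adjusted p = 0.0563). Replicates 1 to 3 alone (adjusted p = 0.573), replicates 4 to 6 alone (0.0826) and limma on log2(GETMM + 1) (0.0516) lost it too. Apart from the fits leaving out 1 library, it held in 5 of 13 alternatives.

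Neither atypical member passed the test for IL-4. Dusp3 had 375 to 417 CPM in KO M2 against 342 to 390.2 in KO M0, and 373 to 397 in WT M2 against 328 to 374 in WT M0. Its IL-4 response was 0.10 in each genotype (SE 0.05 each, adjusted p = 0.107 in knockout and 0.172 in wild type). Dusp3 shares 604 exonic bases with an antisense gene, so part of its count is uncertain in the same way as for Dusp5. Dusp22, a regulator of JNK signalling, had 15.0 to 21.2 CPM in KO M2 against 18.4 to 23.8 in KO M0, and 16.3 to 20.5 in WT M2 against 16.4 to 18.4 in WT M0. Its response was -0.21 (SE 0.08, adjusted p = 0.0745) in knockout and 0.06 (SE 0.08, adjusted p = 0.714) in wild type, and the knockout value passed in some alternatives. Among these were the fit without KO M2 replicate 1 (adjusted p = 0.0253), replicates 4 to 6 alone (adjusted p = 0.0280) and limma on log2(GETMM + 1) and log2(GETMM + 0.1) (adjusted p = 0.0476 and 0.0479). The fit with a block for the label number that an M0 and an M2 library share also called it (adjusted p = 0.0276). Over the family, the IL-4-treated and untreated libraries did not overlap for Dusp4, Dusp1, Dusp6 and Dusp16 in knockout, where this held for 14% of all genes. In wild type they did not overlap for Dusp4, Dusp1 and Dusp10, where it held for 8.16% of all genes, and the Dusp10 groups met at 1.90 CPM.

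**Figure D3:**
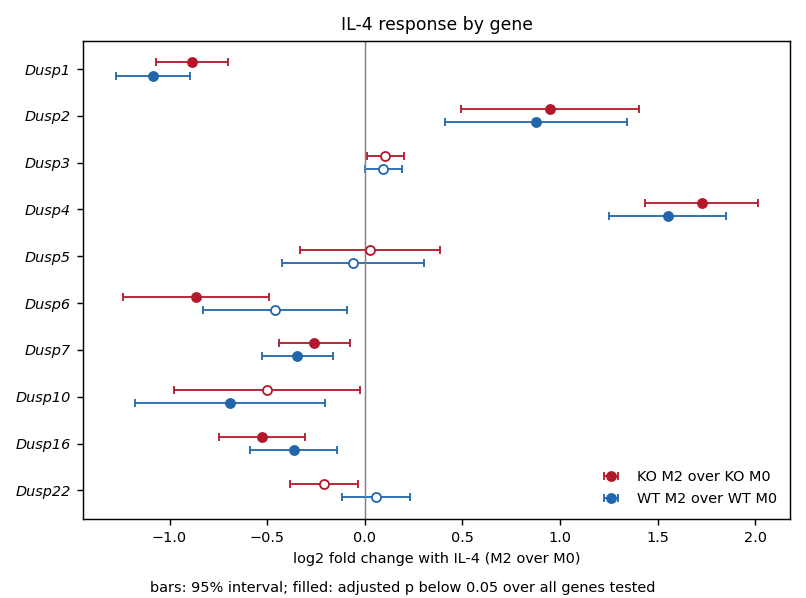
Log2 fold change with IL-4 of each phosphatase gene in knockout and wild-type macrophages; points are edgeR estimates, filled where the adjusted p is below 0.05, and bars are 95% intervals, with 6 libraries a group. Dusp4 (1.72 in knockout, 1.55 in wild type) and Dusp2 lie above 0, Dusp1 (-0.89 and -1.09) lies below 0, and Dusp3 and Dusp5 lie near 0.

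Loss of MK2 went with higher transcripts of 2 nuclear members, Dusp4 and Dusp1, and with no called fall in any member. With IL-4, Dusp4 and Dusp1 were higher in knockout, 2 of 10 members, where 4.59% of all genes were called, 1.51% higher and 3.09% lower. Without IL-4, Dusp4 alone was called, 1 of 10 members, where 4.52% of all genes were called, 1.1% higher and 3.42% lower. The median log2 fold change of the members was 0.22 with IL-4 and 0.19 without IL-4, beside 0.0060 and -0.0069 over all genes. The knockout comparison with IL-4 and the IL-4 comparison in knockout share the KO M2 libraries, as the other pairs of comparisons share theirs, so the sets of values are not independent of each other.

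Dusp4 was 0.81 higher on the log2 scale in KO M2 than in WT M2 (SE 0.14, adjusted p = 2.20e-04), and its lowest KO M2 library, at 65.6 CPM, was above its highest WT M2 library, at 56.9 CPM. It was 0.64 higher in KO M0 than in WT M0 (SE 0.15, adjusted p = 0.00849), where the lowest KO M0 library had 23.0 CPM and the highest WT M0 library 22.0 CPM. Groups that did not overlap were found for 3.63% of all genes with IL-4 and for 3.48% without. The labels carry library numbers, and what these stand for is not given. Save 3 libraries, the numbers of replicates 1 to 3 come before those of replicates 4 to 6, in 1 series. KO M2 replicate 2, WT M2 replicate 2 and WT M0 replicate 3 carry numbers later than all the others. Each set of replicates was fitted on its own. With IL-4, Dusp4 was higher in knockout by 0.98 in replicates 1 to 3 (adjusted p = 0.0246) and by 0.59 in replicates 4 to 6 (adjusted p = 3.85e-04). Without IL-4 the values were 0.72 (adjusted p = 0.113) in replicates 1 to 3 and 0.60 (adjusted p = 0.00208) in replicates 4 to 6. The order of the 4 group means of Dusp4, highest in KO M2, then WT M2, KO M0 and WT M0, was also that of Vwf, at 202 CPM in KO M2, 135 in WT M2, 91.7 in KO M0 and 55.1 in WT M0. Stromal markers moved with genotype as given above, and their part in these differences was not tested.

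Dusp1 was 0.44 higher on the log2 scale in KO M2 than in WT M2 (SE 0.09, adjusted p = 0.00329). The 6 KO M2 libraries, at 29.3, 35.2, 32.5, 34.7, 30.7 and 32.2 CPM, were all above the 6 WT M2 libraries, at 23.2, 24.1, 24.4, 21.0, 24.8 and 26.0 CPM. Both sets of replicates gave the same value, 0.44 in replicates 1 to 3 (adjusted p = 0.0201) and 0.44 in replicates 4 to 6 (adjusted p = 0.00314). Without IL-4 the picture depended on the set. Replicates 1 to 3 had 53.0, 54.7 and 54.1 CPM in KO M0 against 59.5, 54.9 and 59.4 in WT M0, and replicates 4 to 6 had 67.2, 66.6 and 63.9 in KO M0 against 40.6, 46.0 and 44.3 in WT M0. The pooled value of 0.24 (SE 0.09, adjusted p = 0.153) therefore stood between -0.08 in the first set (adjusted p = 0.786) and 0.61 in the second (adjusted p = 5.41e-05). The difference between the sets, tested in 1 fit after these values had been seen, was 0.70 (SE 0.11, adjusted p = 0.00907), and 1.81% of all genes passed that test.

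The ERK-specific Dusp6 had 9.37 to 16.2 CPM in KO M2 against 10.7 to 23.0 in WT M2, a log2 fold change of -0.39 (SE 0.18, adjusted p = 0.349). In replicates 4 to 6 alone the fall was called, at -0.68 (adjusted p = 0.00145), and in replicates 1 to 3 the value was -0.04. Without IL-4 its mean was 23.9 CPM in KO M0 and 23.7 in WT M0. Its 2 sets there gave 0.41 and -0.35 in the joint fit, a difference of -0.76 that did not pass the test (adjusted p = 0.161). For Dusp7 with IL-4 the sets gave 0.43 in replicates 1 to 3 and -0.17 in replicates 4 to 6, and this difference of -0.60 (SE 0.13) passed, with an adjusted p of 0.0305, where 0.781% of all genes did. Dusp7 over all libraries was 0.13 with IL-4 and 0.05 without IL-4, and neither passed (adjusted p = 0.635 and 0.871). In the IL-4 comparisons 0 members had a difference between sets that passed, where 0% of all genes passed in knockout and 0.0156% in wild type (edgeR's quasi-likelihood test).

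The other members were not called for genotype. Dusp22 came nearest, with 18.4 to 23.8 CPM in KO M0 against 16.4 to 18.4 in WT M0, a log2 fold change of 0.26 (SE 0.08, adjusted p = 0.0833), and DESeq2 called it at an adjusted p of 0.0462. With IL-4 it was -0.0033 (adjusted p = 0.998), as near to 0 as Dusp16 at -0.01 (adjusted p = 0.997). Dusp2 was 0.37 and 0.30 on the log2 scale with and without IL-4 (adjusted p = 0.536 and 0.610), and Dusp5 was 0.31 and 0.23 (adjusted p = 0.501 and 0.600). Dusp10 was 0.33 with IL-4 and 0.14 without (adjusted p = 0.693 and 0.852), and Dusp3 was 0.05 and 0.04 (adjusted p = 0.793 and 0.759). Dusp16 without IL-4 was 0.16 (adjusted p = 0.532), and Dusp6 without IL-4 was 0.01 (adjusted p = 0.986).

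**Figure D4:**
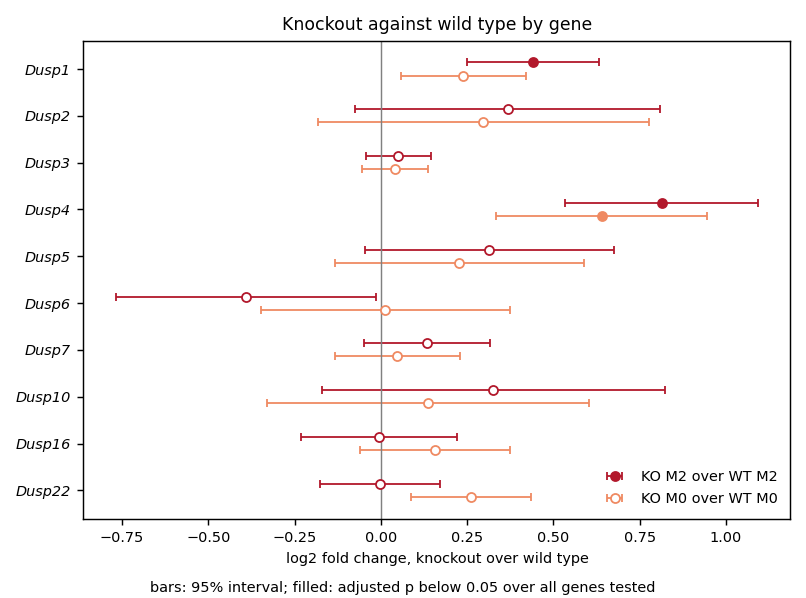
Log2 fold change of knockout over wild type for each phosphatase gene, with IL-4 and without IL-4; points are edgeR estimates, filled where the adjusted p is below 0.05, and bars are 95% intervals, with 6 libraries a group. Dusp4 lies above 0 in both states (0.81 with IL-4, 0.64 without) and Dusp1 at 0.44 with IL-4.

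**Figure D5:**
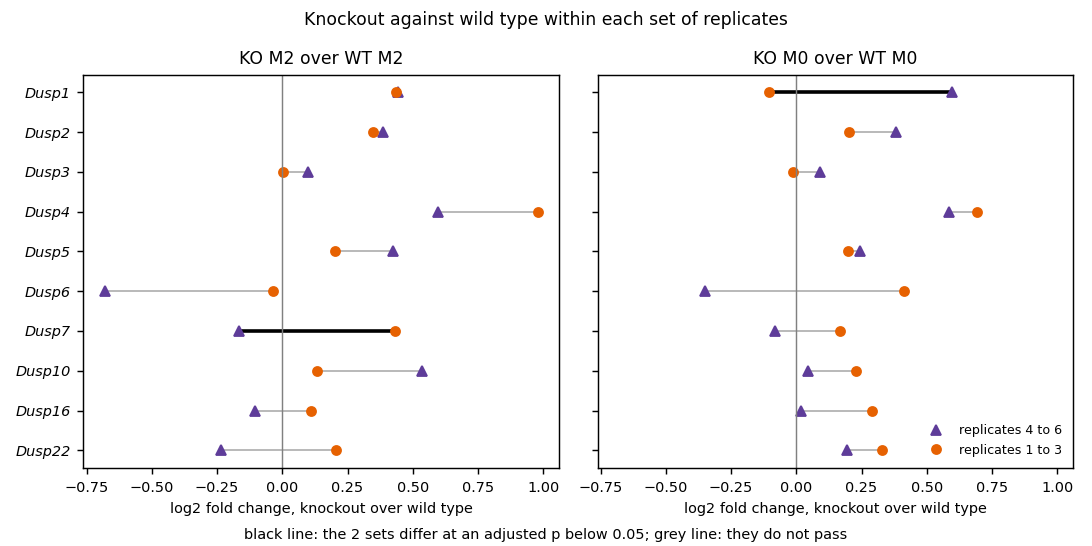
Log2 fold change of knockout over wild type within replicates 1 to 3 and within replicates 4 to 6, for each phosphatase gene with and without IL-4, from 1 fit over 8 groups of 3 libraries; a black line joins sets that differ at an adjusted p below 0.05. Dusp1 without IL-4 (-0.10 and 0.60) and Dusp7 with IL-4 (0.43 and -0.17) differ between the sets, while Dusp4 lies above 0 in both.

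Whether the IL-4 response itself differed between genotypes was tested as the response in knockout minus that in wild type. The test called 0 of the 10 members and 0 of 12797 genes, 0% (edgeR's quasi-likelihood test, with 390 genes at an unadjusted p below 0.05), and DESeq2 called 1 gene with 349 below 0.05 unadjusted. Dusp22 was the sole member with an unadjusted p below 0.05, at -0.26 (95% interval -0.51 to -0.02, unadjusted p = 0.0361, adjusted p = 0.9998). The difference was 0.17 for Dusp4 (95% interval -0.24 to 0.59) and 0.20 for Dusp1 (95% interval -0.06 to 0.47). Differences in response within those intervals could not be resolved with 6 libraries a group.

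Genes acting around the phosphatases were counted by list in the same fit, from lists drawn up with earlier results of these data known. The shares to read these counts against are those over all genes: with IL-4, 12.2% higher and 11.4% lower in knockout, and 8.49% higher and 7.95% lower in wild type. Of 14 other dual-specificity phosphatases 9 were tested. Dusp18 rose by 1.25 on the log2 scale with IL-4 in knockout (adjusted p = 9.56e-07) and by 0.89 in wild type (adjusted p = 1.89e-04). Dusp23 also rose in both, by 0.50 and 0.34, Dusp13 rose in knockout at 0.81, and Dusp8, a JNK and p38 phosphatase, fell in wild type at -0.86 (adjusted p = 0.0187). For genotype 0 of the 9 were called by edgeR. Among 7 other phosphatases of MAP kinases tested, Ppp2r1a, a scaffold subunit of PP2A, rose by 0.18 in knockout (adjusted p = 0.0437), and Ppm1d fell by 0.41 in wild type (adjusted p = 0.00373).

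Of the kinases upstream and downstream, Mapk11, which encodes p38 beta, fell with IL-4 by 1.23 in knockout (adjusted p = 0.00293) and by 0.91 in wild type (adjusted p = 0.0340). Map3k5, which encodes the stress kinase ASK1, fell by 0.95 in knockout and by 0.65 in wild type (adjusted p = 3.22e-07 and 1.23e-04). Rps6ka5, the nuclear kinase MSK1, fell by 1.12 and 0.76 on the log2 scale (adjusted p = 2.17e-07 and 1.25e-04), and Mapkapk3, the closest relative of MK2, rose by 0.79 and 0.52 (adjusted p = 1.18e-05 and 0.00273). Of 7 MAP kinases tested, 3 were called with IL-4 in knockout, among them Mapk14, which fell by 0.24, and 1 in wild type. Of 15 MAP3K genes 4 were called in knockout, where Map3k1 fell by 0.26, Map3k20 fell by 0.32 and Braf rose by 0.45, and 2 in wild type. Of 7 MAP kinase kinases 1 was called in each genotype, Map2k4 in knockout (0.19) and Map2k3 in wild type (0.29). Of 10 kinases activated by MAP kinases 2 were called in knockout and 3 in wild type, where Rps6ka2 rose by 0.44. The called shares of the MAP3K and MAP kinase kinase lists lay near or below the 23.6% of all genes called in knockout and the 16.4% called in wild type. For genotype the calls in these lists were Mapkapk2 in both states and Rps6ka2, which was 0.59 higher in KO M0 than in WT M0 (adjusted p = 0.00416).

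Of 9 other inhibitors of ERK signalling tested, IL-4 left 2 higher and 3 lower in knockout, where 12.2% of all genes were higher and 11.4% lower, and 0 higher and 3 lower in wild type, where 8.49% were higher and 7.95% lower. Their median log2 fold change was -0.31 in knockout and -0.33 in wild type. Spred3 fell by 1.20 in knockout and by 0.89 in wild type (adjusted p = 1.39e-04 and 0.00458), and Spry3 by 0.88 and 1.11 (adjusted p = 0.0328 and 0.0117). Rasa1 and Errfi1 rose in knockout, by 0.37 and 0.33 (adjusted p = 0.0137 and 0.0192). Lrig1 fell by 0.65 in knockout and by 0.80 in wild type (adjusted p = 0.0357 and 0.0193). Errfi1, which encodes an inhibitor of EGF receptor family kinases, was lower in knockout in both states, with a log2 fold change of -0.97 with IL-4 (adjusted p = 6.05e-08) and -1.04 without (adjusted p = 2.26e-08). The stromal markers were lower in the same libraries, and their part in this was not tested.

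Of 23 immediate early and ERK output genes 20 were tested, and IL-4 moved them both ways: 6 rose and 5 fell in knockout, and 5 rose and 2 fell in wild type. Fosl2 rose by 1.03 in knockout and 0.64 in wild type (adjusted p = 1.87e-09 and 9.19e-06), and Klf4 by 1.72 and 1.65 (adjusted p = 9.20e-08 and 5.86e-07). Egr2 rose by 1.68 in knockout and 1.41 in wild type (adjusted p = 3.76e-08 and 1.06e-06), and Atf3 by 0.67 and 0.62 (adjusted p = 1.12e-08 and 7.70e-08). Fos fell by 0.92 in knockout and 0.86 in wild type (adjusted p = 3.94e-08 and 2.06e-07). For genotype, Fosl2 was 0.44 higher in KO M2 than in WT M2 (adjusted p = 0.00161) and Ccnd1 0.76 higher in KO M0 than in WT M0 (adjusted p = 0.0214). Among scaffolds and docking partners 5 of 9 tested genes were called with IL-4 in each genotype, where 23.6% of all genes were called in knockout and 16.4% in wild type. Arrb2 fell by 0.84 in knockout and 0.76 in wild type (adjusted p = 2.76e-08 and 2.72e-07), Lamtor3 rose by 0.35 and 0.31, and Ksr1 rose by 0.56 and 0.47. Mapk8ip1 rose by 1.09 in knockout and by 0.85 in wild type (adjusted p = 0.00524 and 0.0468). Tab2 fell by 0.37 in wild type (adjusted p = 0.0205), and its value in knockout was -0.28 (adjusted p = 0.0694). Of 8 binders of AU-rich elements, Zfp36, which encodes tristetraprolin, rose with IL-4 in knockout by 0.35 (adjusted p = 0.00460), Zfp36l2 fell in knockout by 0.22 and in wild type by 0.26 (adjusted p = 0.0233 and 0.0129), and 0 of the 8 were called for genotype by edgeR.

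Across the 24 libraries, the 4 members with the widest group differences each had genes of very similar profile among 9574 genes compared, which is a description, since the libraries share groups. Dusp4 was most like Anxa1 (Pearson r = 0.98), Vwf (0.98) and Lpxn (0.97). Dusp1 was most like Fam129a (0.93), Aldh9a1 (0.92) and Rassf5 (0.92). Dusp2 was most like Nme1 (0.91), Bcl2l11 (0.90) and Tgm2 (0.89), and Dusp6 was most like Itga6 (0.94), Cpd (0.93) and Rgs2 (0.92). Between members, Dusp2 and Dusp4 had an r of 0.81, which was 0.34 once group means were removed. Dusp6 and Dusp16 had 0.80, and 0.61 within groups. Dusp1 and Dusp4 had -0.67 over all libraries and -0.03 within groups, so that their opposite pattern lay between the groups and not among the libraries of a group.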

How the data were processed

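Single-end libraries of 40 bp reads were prepared with the Kapa Hyperprep kit, per the labels. The authors deposited rounded expected counts for each gene, and GETMM values, a signal that equals each count times 1 factor for the gene and 1 for the library, checked on 13047 genes. The tools named per the submitters' processing notes are Bowtie2 2.3.4.1, RSEM 1.3.0, CASAVA 2.8.0 and edgeR, with the build mm10 and no settings. The filter filterByExpr (minimum count 10) kept 12797 genes, and libraries were scaled by TMM. Contrasts were tested with edgeR 4.0.16 (R 4.3.3), using its robust quasi-likelihood test in 1 fit over the 4 groups, with Benjamini-Hochberg adjustment over all genes tested and a threshold of 0.05, and each SE is the log2 fold change over the root of its F statistic. The scripts were tested on simulated data. The closest libraries of a group had a chi-square of 2.62 per degree of freedom between their counts, above sampling noise, so none was taken as a repeat deposit. Members and lists were chosen with earlier results of these data known. Genes named were all 10 members, Mapkapk2, up to 4 called genes of each pathway list per contrast by smallest p (alternative activation by counts only), and the 3 genes most like each of the 4 members with the widest group range, among genes averaging 2 or more in log2 CPM and leaving out predicted genes; marker genes other than those at 0 were named after their values were seen. Gene coordinates and UTRs were from GENCODE M21. Alternatives used DESeq2 1.42.0, limma 3.58.1 on log2(GETMM + 1) and log2(GETMM + 0.1), RLE factors, other filters, 2 groups a fit, the sets of replicates, blocks and leaving out libraries. Some genes that the naming rule selects are not reported here.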

Additional observations from a re-analysis of the deposited data

Results flagged for a closer look

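Dusp7 in KO M0 replicate 2 stood apart from the other libraries of its group, at 76.3 CPM where the next highest had 63.6. It was the 1 group of 40 tested (10 genes in 4 groups) in which a library lay outside Dixon's 95% limit, and chance flags about 1 in 20 groups. The knockout difference in Dusp1 without IL-4 was not the same in the 2 sets of replicates, at -0.10 in replicates 1 to 3 and 0.60 in replicates 4 to 6, a difference of 0.70 on the log2 scale (SE 0.11, edgeR's quasi-likelihood adjusted p = 0.00907). The knockout difference in Dusp7 with IL-4 also differed between the sets, at 0.43 and -0.17, a difference of -0.60 (SE 0.13, adjusted p = 0.0305). Both were tested after the values had been seen.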

How the results depend on the processing

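The members called numbered 6 for IL-4 in knockout, 6 for IL-4 in wild type, 2 for knockout with IL-4, 1 without IL-4 and 0 for the difference. In replicates 1 to 3 alone they were 3 for IL-4 in wild type. That fit called 857 of 12844 genes there, against 2103 of 12797 in the main fit. For knockout without IL-4, replicates 1 to 3 alone gave 0 members and 433 of 12844 genes. DESeq2 and replicates 4 to 6 each gave 2 members, with 723 and 956 of 12797 genes called, against 579 in the main fit. No called member changed sign under any alternative. Calls lost or gained by leaving out 1 library are given with their members. With replicate number as a block the counts were 5, 5, 2, 1 and 0 in the order above, without Dusp7 in knockout (adjusted p = 0.0531) and Dusp10 in wild type (0.0635). The labels also give an M0 and an M2 library of a genotype the same number after the letters LS. They do not say what it stands for, or that the libraries share an animal or culture. With that number as a block the counts were 7 for IL-4 in knockout, 6 for IL-4 in wild type and 0 for the difference. The shares of all genes called with either block are not given here, so these counts cannot be read against them. The block added Dusp22 in knockout (adjusted p = 0.0276) and Dusp6 in wild type (0.00181), and Dusp10 in wild type was lost (0.0506). Deviations from the group means of libraries sharing that number had r of -0.045 to 0.259 in knockout and 0.010 to 0.354 in wild type. Of the 6 pairs, 4 in knockout and 2 in wild type correlated best with their own number. No knockout library shares that number with a wild-type library. Matched by replicate number instead, knockout and wild-type libraries had r of -0.070 to 0.482 with IL-4 and -0.296 to 0.172 without. What the number shared by M0 and M2 libraries stands for is not given, and the main fit did not pair libraries by it. The r values cannot settle whether the libraries were paired, and the calls that changed with the block are given above. Signs of these uncalled values turned, and the cause was not tested. In replicates 1 to 3 alone, IL-4 in wild type gave Dusp5 0.090, knockout without IL-4 gave Dusp1 -0.078, knockout with IL-4 gave Dusp22 0.21 and Dusp16 0.11, and the difference gave Dusp3 -0.0068, Dusp5 -0.023 and Dusp10 -0.12. In replicates 4 to 6 alone, IL-4 in knockout gave Dusp5 -0.016, knockout without IL-4 gave Dusp6 -0.34 and Dusp7 -0.071, knockout with IL-4 gave Dusp7 -0.17, and the difference gave Dusp1 -0.16, Dusp2 -0.0070, Dusp3 -0.0072, Dusp4 -0.0029 and Dusp7 -0.098. Without the 3 libraries whose label numbers stand apart (KO M2 replicate 2, WT M2 replicate 2 and WT M0 replicate 3), Dusp5 was -0.018 for IL-4 in knockout and Dusp3 -0.0069 for the difference. With no filter, Dusp22 was 0.0099 and Dusp16 0.0056 for knockout with IL-4, and Dusp3 -0.00063 for the difference. For knockout with IL-4, DESeq2 gave Dusp22 0.0082 and Dusp16 0.0075, and Dusp22 was 0.00026 with RLE factors and 0.00028 with the CPM filter. On log2(GETMM + 1) and log2(GETMM + 0.1) the difference for Dusp3 was -0.015, and on the second Dusp2 was -0.0035. Leaving out 1 library at a time gave Dusp5 -0.054 to 0.11 for IL-4 in knockout and -0.17 to 0.038 in wild type. It gave Dusp16 -0.074 to 0.066 and Dusp22 -0.058 to 0.041 for knockout with IL-4, Dusp6 -0.078 to 0.087, Dusp7 -0.011 to 0.080 and Dusp10 -0.0017 to 0.23 without IL-4, and Dusp2 -0.053 to 0.21, Dusp3 -0.011 to 0.034 and Dusp5 -0.0076 to 0.19 for the difference. Depth limits Dusp10 most, at 83 to 148 counts a group.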
